A study of Homo sapiens with 60 samples.

Results

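TXNIP, ARRDC4, ARRDC3, PDK4, HBP1, KLF10, TKFC and MLXIP are genes tied to glucose sensing and fuel choice, and their transcripts were followed across 60 RNA-seq libraries of SW1783 cells, a human astrocytoma line. They were picked by symbol, for the rise of TXNIP with 3 extracts, and make up 8 of the 60675 genes in the count table. All 8 passed the filter on low counts. SW1783 is 1 line, kept in Leibovitz's L-15 medium with serum, and the cells were exposed for 24 h to a water extract of a medicinal plant or formula, or to vehicle. There were 6 extracts with 3 libraries at each dose: Citri Unshius Pericarpium, Cimicifugae Rhizoma, Yijung-tang, Banhasasim-tang, Aconiti Lateralis Radix Preparata and Bupleuri Radix. The doses were 20 (low), 100 (medium) and 500 µg/mL (high). Bojungikgi-tang had 1 library per dose and is given as values only. The 3 vehicle libraries received DMSO, at 0.1% by the sample labels and at 2% by the study's design text. The labels do not say whether libraries of a group came from separate cultures, so p-values measure the spread between these libraries, which may be technical.

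TXNIP is an alpha-arrestin that binds thioredoxin and lowers glucose uptake, and its transcription is one of the best-known readouts of intracellular sugar phosphates. MLXIP, also called MondoA, is the sensor: with its partner MLX it moves to the nucleus when glucose-6-phosphate builds up, and it activates TXNIP and ARRDC4 through paired CACG-type boxes, the carbohydrate response element. ARRDC4 and ARRDC3 are alpha-arrestins related to TXNIP. PDK4 phosphorylates pyruvate dehydrogenase and so limits glucose oxidation, HBP1 is an HMG-box repressor induced by FOXO factors, KLF10 is a Krüppel-like factor first known as an early gene of TGF-beta signalling, and TKFC is the triokinase of fructose breakdown. L-15 medium carries galactose in place of glucose.

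On GRCh38, TXNIP (ENSG00000265972) lies at chr1:145992435-145996600 on the minus strand, ARRDC4 (ENSG00000140450) at chr15:97960698-97973838 on the plus strand, PDK4 (ENSG00000004799) at chr7:95583499-95596491 on the minus strand and HBP1 (ENSG00000105856) at chr7:107168961-107202529 on the plus strand. ARRDC3 (ENSG00000113369) lies at chr5:91368724-91383359 on the minus strand, TKFC (ENSG00000149476) at chr11:61333210-61353295 and MLXIP (ENSG00000175727) at chr12:122078722-122147347, both on the plus strand. The promoters of TXNIP and ARRDC4 are shown because these are the genes through which the carbohydrate response element is best known. They come from RefSeq on GRCh38.p14 and run over the 250 bases before the start site, 5′ to 3′ on the strand of the gene. Capitals mark CACGNG half-sites on either strand.
TXNIP, chr1:145996580-145996829, minus strand: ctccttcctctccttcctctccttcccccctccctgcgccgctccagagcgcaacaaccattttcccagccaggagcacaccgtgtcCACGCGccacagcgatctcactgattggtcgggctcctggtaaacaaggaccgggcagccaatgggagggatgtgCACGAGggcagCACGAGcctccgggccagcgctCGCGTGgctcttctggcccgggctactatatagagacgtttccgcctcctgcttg
ARRDC4, chr15:97960453-97960702, plus strand: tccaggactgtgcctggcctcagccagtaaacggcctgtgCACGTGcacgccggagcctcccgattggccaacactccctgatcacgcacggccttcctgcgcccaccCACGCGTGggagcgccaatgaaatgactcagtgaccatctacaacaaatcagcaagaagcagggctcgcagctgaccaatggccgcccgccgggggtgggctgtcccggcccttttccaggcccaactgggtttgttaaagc

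The TXNIP promoter held 4 half-sites, and 2 of them, at -88 and -77 from the start site, were 5 bases apart, the spacing of the element. Such a pair, in any orientation, was in 27 of 35114 RefSeq promoter windows (0.0769%), each of which runs from 250 bases before to 50 after a start site. The ARRDC4 promoter held 4 half-site matches, counted on both strands. Those at -210 are 1 palindromic E-box, CACGTG, which 7.26% of windows hold, and those at -142 and -140 overlap. No pair 5 bases apart was in this ARRDC4 window. CACGNG itself was in 30.5% of windows, and among the other members with a window ARRDC3 and TKFC had 1 match each, while PDK4, HBP1 and MLXIP had none. Of the 8 members, 7 matched at least 1 window, and KLF10 did not. These matches describe letters only.

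Libraries held 18.9 to 36.4 M expected counts, and member counts per library lay between 12 and 102 for PDK4, 42 and 5712 for TXNIP, and 84 and 3332 for the other 6. Values below are CPM, each count as a share of its library's total, scaled by TMM, and each compares one gene between libraries, not one gene with another. The 8 astrocyte markers were mixed: GFAP, S100B and SLC1A2 had medians of 0.103, 0.103 and 0.314 CPM and AQP4 and ALDH1L1 were at 0 in 52 and 36 of 60 libraries, whereas SLC1A3, SOX9 and GJA1 had medians of 32.5, 68.9 and 240 CPM. Of the fibroblast markers, COL1A1 and COL1A2 had medians of 3218 and 1938 CPM. PDGFRB, LUM, PDGFRA and DCN had 71.6, 32.9, 25.2 and 18.2 CPM. The glioma and mesenchymal markers VIM, CD44 and NES had medians of 4454.5, 2744 and 9.04 CPM. Of 4 microglial and leukocyte markers, AIF1 was at 0 in 55 libraries and ITGAM in 10, while PTPRC and CD68 had medians of 12.8 and 154 CPM. Of the endothelial and epithelial markers, CDH5 was at 0 in 45 libraries, EPCAM in 33 and CDH1 in 26, while the keratin KRT18 had a median of 174 CPM. The sample codes fall into sets, with Citri and Cimicifugae in one, Aconiti and Bupleuri in another, the formulas Yijung-tang and Banhasasim-tang in another again, and the vehicle in its own. Set and treatment therefore cannot be told apart in a comparison with the vehicle, while doses of an extract, and extracts of a set, are compared within a set. Replicate 3 of the low Citri dose and replicate 3 of the high Cimicifugae dose lay farthest from their groups, and the results below whose call rests on them are given without them as well.

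TXNIP stood highest at 500 µg/mL of Yijung-tang, Citri and Cimicifugae, the values that chose these genes, so they are described here and not tested. With the high dose of Yijung-tang TXNIP had 219, 212 and 217 CPM, and with that of Citri 193, 187 and 162 CPM. With the high dose of Cimicifugae it had 58.8, 64.7 and 61.2 CPM, against 9.31, 8.44 and 8.38 CPM in the vehicle libraries. The 9 high-dose libraries of these extracts stood above every other library in the table. On the log2 scale the high dose exceeded the vehicle by 4.63 ± 0.082 for Yijung-tang, 4.37 ± 0.082 for Citri and 2.82 ± 0.084 for Cimicifugae (edgeR estimate ± SE, n = 3 each). The ratio of mean CPM to the vehicle was 7.07 for Cimicifugae, the lowest of the 3, and 1.45 for the high dose of Banhasasim-tang, the next of the extracts with 3 libraries. The single library of Bojungikgi-tang at that dose had 15.7 CPM, above the Banhasasim-tang libraries.

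**Figure D1:**
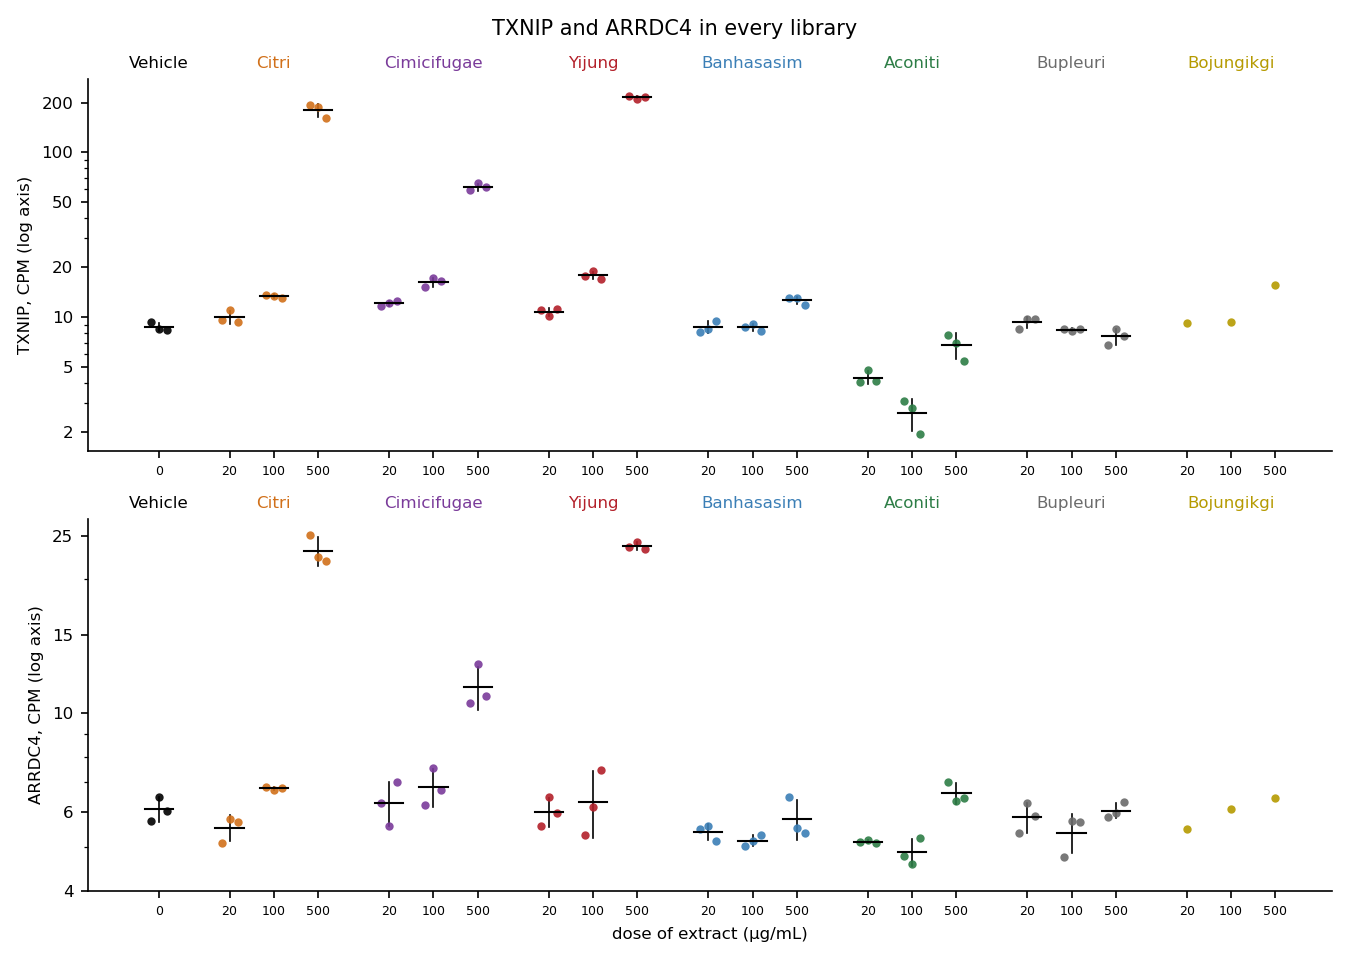
CPM (log axes) of TXNIP (top) and ARRDC4 (bottom) in all 60 libraries by dose of extract in µg/mL. Points are libraries, horizontal bars group means and vertical bars SD for groups of 3. TXNIP with 500 µg/mL of Yijung-tang averaged 216 CPM against 8.71 CPM with vehicle, and the same 3 high-dose groups are the highest for ARRDC4.

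The high dose exceeded the medium dose by 3.75 ± 0.072 log2 units for Citri, 3.59 ± 0.064 for Yijung-tang and 1.92 ± 0.070 for Cimicifugae, again with no test. Among the 19 groups of 3 libraries, the means ran from 216 CPM (Yijung-tang, high) to 2.61 CPM (Aconiti, medium), with the vehicle in place 12 of the order. The ranges of neighbours in that order did not overlap at 7 of 18 steps. The first 3 places were each apart from the next. Yijung-tang and Cimicifugae at 100 µg/mL, with means of 17.9 and 16.3 CPM, overlapped each other and stood apart from Citri at 100 µg/mL (13.4 CPM). From Yijung-tang at the low dose (10.8 CPM) down to Aconiti at the high dose (6.75 CPM), in places 9 to 17, every neighbour overlapped the next, and only the medium and low Aconiti doses stood below them.

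At 100 µg/mL TXNIP was also above the vehicle with the same 3 extracts. The choice of genes names no dose and was made over all groups, with these vehicle libraries. Differences of TXNIP from the vehicle in these extracts are therefore described without a test at every dose. With the medium dose of Yijung-tang it had 17.8, 18.96 and 17.0 CPM, with Cimicifugae 15.1, 17.2 and 16.5 CPM, and with Citri 13.7, 13.5 and 12.97 CPM. All 9 values lay above the 3 vehicle libraries. The log2 change against the vehicle was 1.04 ± 0.089 for Yijung-tang, 0.90 ± 0.092 for Cimicifugae and 0.62 ± 0.095 for Citri (edgeR estimate ± SE). Of all tested genes 6.28%, 6.63% and 2.07% were called in those comparisons. The 3 comparisons share their vehicle libraries. At the same dose of Banhasasim-tang and Bupleuri TXNIP had means of 8.68 and 8.38 CPM, and neither passed against the vehicle (edgeR's quasi-likelihood test, Benjamini-Hochberg adjustment over 17190 genes).

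Within an extract, where the vehicle plays no part, TXNIP was higher at 100 than at 20 µg/mL for all 3. These libraries too come from the extracts that chose the genes. The tests and ranks of TXNIP here, and those of Yijung-tang against Banhasasim-tang, are not independent of that choice. They are no further evidence of the rise. Yijung-tang gave 17.8, 18.96 and 17.0 CPM at the medium dose, against 11.0, 10.1 and 11.3 CPM at the low dose, with no overlap. That rise was 0.73 ± 0.080 log2 units (edgeR adjusted p = 4.01e-08), and TXNIP ranked 2 by p among the 20 genes (0.116%) called there. In Cimicifugae the difference was 0.43 ± 0.084 (adjusted p = 0.0113), 1 of 18 genes called (0.105%), and in Citri 0.42 ± 0.090 (adjusted p = 0.0233), 1 of 39 (0.227%). Neither group pair overlapped, but both calls hung on single libraries. The Cimicifugae call was lost without replicate 1 or 2 of the low dose or replicate 2 or 3 of the medium dose (edgeR adjusted p between 0.0766 and 0.143). The Citri call was lost without replicate 1 or 3 of the low dose or replicate 1 or 2 of the medium dose (0.0666 to 0.352), and was 0.37 with adjusted p = 0.28 without the 2 libraries named above.

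**Figure D2:**
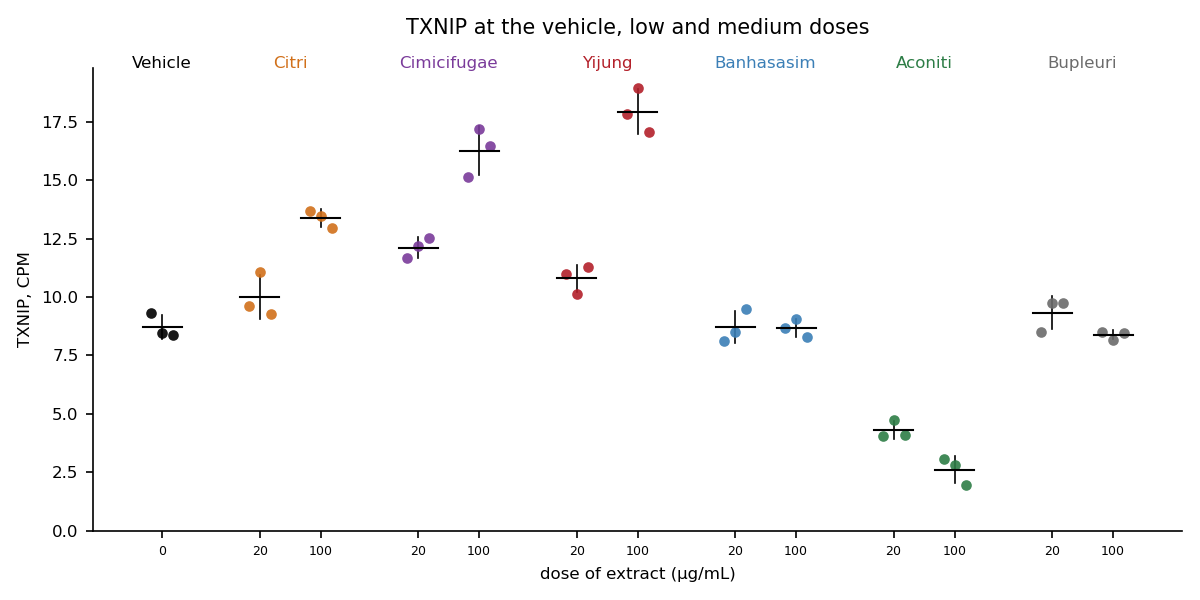
TXNIP in CPM (linear axis from 0) in the vehicle libraries and at 20 and 100 µg/mL of each extract, with points for libraries, horizontal bars for means and vertical bars for SD (n = 3). At 100 µg/mL the Yijung-tang, Cimicifugae and Citri libraries lie above all vehicle libraries, and both Aconiti doses lie below them.

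At 20 µg/mL the differences of TXNIP from the vehicle were small with every extract but Aconiti, which is described below. TXNIP had 11.6, 12.2 and 12.5 CPM with Cimicifugae, all above the vehicle libraries, a difference of 0.48 ± 0.096 log2 units, untested (1.27% of genes called). With Yijung-tang the difference was 0.31 ± 0.095 (6.38% of genes called) and with Citri 0.20, also untested. The low doses of Banhasasim-tang and Bupleuri did not pass, at 0.00 and 0.10 log2 units from the vehicle.

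With Aconiti, prepared from aconite root, TXNIP lay below the vehicle. TXNIP had 4.05, 4.74 and 4.10 CPM at 20 µg/mL, 3.08, 2.80 and 1.96 CPM at 100 µg/mL, and 7.82, 6.99 and 5.43 CPM at 500 µg/mL. All 9 libraries lay below the lowest vehicle library (8.38 CPM), and the medium dose was lowest. Against the vehicle TXNIP fell by 1.02 ± 0.12 log2 units at the low dose (edgeR adjusted p = 8.01e-08, 2.19% of genes called) and by 1.75 ± 0.14 at the medium dose (2.59e-15, 31.1% called). The low-dose change was the fourth largest fall among 179 genes that fell in that comparison. The high dose stood at -0.38 ± 0.11 against the vehicle, untested. Within the extract TXNIP fell by 0.73 ± 0.16 at the medium against the low dose (edgeR adjusted p = 0.000336, 20.4% called) and rose by 1.37 ± 0.15 at the high against the medium dose (1.21e-11, 47.1% called). At the high against the low dose TXNIP rose by 0.64 log2 units, past edgeR's threshold (57.8% called). These libraries held only 42 to 156 TXNIP counts each, fewer than the 164 to 196 of the vehicle. The share of counts from mitochondrially encoded genes was 8.99 to 9.29% at the high dose, 10.6 to 10.8% at the medium and 6.45 to 7.56% at the low dose, against 5.03 to 5.29% with vehicle. The summed CPM of 6 fibroblast markers was 1444 to 1564 at the high dose, 4038 to 4382 at the medium and 5061 to 5505 at the low dose, against 5605 to 5837 with vehicle. The sum of 4 epithelial markers was 89.1 to 93.8, 185 to 198 and 204 to 218 CPM at the high, medium and low dose, against 239 to 249 with vehicle, and that of the astrocyte markers 249 to 256, 291 to 311 and 330 to 356 CPM, against 342 to 352. Neuronal markers summed to 53.3 to 55.5, 85.3 to 94.8 and 111 to 121 CPM, against 121 to 129. Not every list was lower. The glioma and mesenchymal markers summed to 7515.8 to 7573.6 CPM at the high dose, above the 6985.5 to 7363.1 CPM with vehicle. The microglial and leukocyte markers were higher there too, at 194.9 to 208.3 CPM, against 151.3 to 159.6 CPM. The endothelial sum at the high dose overlapped that with vehicle. The part of any of these in the results was not tested. All libraries are of 1 line, so these sums are levels of genes and not counts of cell types. A few genes lead the sums. COL1A1 and COL1A2 had medians of 3218 and 1938 CPM over all libraries, KRT18 174 CPM among the epithelial and TUBB3 102 CPM among the neuronal markers. In bulk RNA, fewer cells of a kind, less RNA per cell and lower expression of single genes cannot be told apart.

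Bupleuri Radix shares the code set of Aconiti and allowed the same contrast without the vehicle. TXNIP with Aconiti was lower than with Bupleuri by 1.69 log2 units at the medium dose and 1.12 at the low dose (-1.69 ± 0.14, edgeR adjusted p = 1.13e-14, and -1.12 ± 0.12, 4.72e-09). At the low dose Bupleuri gave 8.50, 9.73 and 9.75 CPM, well apart from the Aconiti values. Of all genes, 28.6% and 0.535% were called in those comparisons, and at the low dose TXNIP was the largest fall of 32. At the high dose the extracts did not differ past the threshold, at -0.19 with a 95% interval of -0.40 to 0.03 (edgeR adjusted p = 0.136). That difference did pass with library totals in place of TMM (-0.32, 0.0114), without replicate 1 of Aconiti (-0.29, 0.0344) or of Bupleuri (-0.27, 0.0474), and with replicate 1 left out of every group (-0.38, 0.0182).

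ARRDC4 was highest in the same 3 high-dose groups as TXNIP. With 500 µg/mL of Yijung-tang it had 23.6, 24.3 and 23.4 CPM, against 5.58, 6.49 and 5.96 CPM at 20 µg/mL. Citri gave 25.1, 22.4 and 22.0 CPM at the high dose, against 5.11, 5.80 and 5.70 CPM at the low dose, and Cimicifugae gave 10.5, 12.9 and 10.9 CPM, against 6.29, 5.59 and 7.03 CPM. No high-dose library overlapped a low-dose one. The high against the low dose came to 2.06 ± 0.090 log2 units for Citri, 1.99 ± 0.084 for Yijung-tang and 0.86 ± 0.092 for Cimicifugae (edgeR adjusted p = 2.61e-24, 1.35e-24 and 3.05e-10). TXNIP in these high-dose libraries chose the genes, and earlier results had shown ARRDC4 and PDK4 higher in them, so the high-dose tests of the members in these extracts are not independent of those results. Without the 2 libraries that lay apart, the Citri change was 2.08 and the Cimicifugae change 0.89. The summed fibroblast markers were lower at the same doses, at 4364 to 4995 CPM with high and 5313 to 5636 CPM with low Yijung-tang, 5018 to 5196 with high and 5803 to 5841 with low Citri, and 4816 to 5077 with high and 5315 to 5431 with low Cimicifugae. The summed epithelial markers were lower there too, at 151 to 170 CPM with high and 205 to 211 with low Yijung-tang, 159 to 167 with high and 222 to 229 with low Citri, and 125 to 134 with high and 201 to 223 with low Cimicifugae. Not every list was lower. The microglial and leukocyte markers summed to 178 to 235 CPM with high and 155 to 165 with low Cimicifugae. The endothelial markers, near 0 throughout, summed to 1.48 to 2.19 CPM with high and 0.638 to 0.698 with low Yijung-tang. The part of any of these lists in the result was not tested.

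At 100 µg/mL, where TXNIP stood above the vehicle, ARRDC4 averaged 6.83, 6.79 and 6.33 CPM with Cimicifugae, Citri and Yijung-tang, against 6.09 CPM with vehicle. By edgeR ARRDC4 passed in 0 of 6 comparisons of these medium doses with the vehicle or the low dose, with 1 at an unadjusted p under 0.05 and 0 by DESeq2. With Citri the medium dose (6.83, 6.73 and 6.81 CPM) did not overlap the low dose, at 0.29 ± 0.10 log2 units (edgeR adjusted p = 0.269). High against medium dose it rose by 1.77 with Citri, 0.74 with Cimicifugae and 1.92 with Yijung-tang (edgeR adjusted p = 4.06e-22, 1.3e-08 and 4.66e-24, where 7.98%, 16.7% and 15.8% of genes were called). In the order of the 19 group means, only the steps after places 2 and 3 were free of overlap: Yijung-tang and Citri at the high dose overlapped each other, Cimicifugae at the high dose stood alone, and the other 16 groups ran from 6.83 to 4.88 CPM with every neighbour overlapping. The lowest was again Aconiti at the medium dose, where ARRDC4 fell by 0.32 ± 0.11 against the vehicle (edgeR adjusted p = 0.0205). That call was lost without the second vehicle library or the first or second medium-dose library (0.0511 to 0.115). With Aconiti ARRDC4 rose by 0.36 ± 0.11 at the high against the low dose (edgeR adjusted p = 0.00403), to 7.02, 6.37 and 6.45 CPM at the high dose, against 5.14, 5.19 and 5.12 CPM at the low dose.

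Counting all testable members at 500 against 20 µg/mL, 6 of 8 rose and 1 fell with Aconiti, where 57.8% of all genes were called. With Citri 3 of 7 rose and 1 fell (18.2% of genes called), with Cimicifugae 3 of 7 rose and 1 fell (25.1%), and with Yijung-tang 3 of 7 rose (21.7%), TXNIP being left out of these. With Banhasasim-tang 1 of 8 rose, TXNIP (6.67%), and with Bupleuri 0 of 8 passed by edgeR (4.37%). Over all dose and vehicle comparisons of Bupleuri edgeR and DESeq2 called 0 members, and an unadjusted p was under 0.05 in 1 of 24 dose and 3 of 23 vehicle tests. In those comparisons 1.65% of all genes were called at the high against the medium dose, 0.0407% at the medium against the low dose, and 7.02%, 0.413% and 0.0756% at the high, medium and low dose against the vehicle. For Aconiti, library totals in place of TMM shift levels by up to 0.124 log2 units.

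**Figure D3:**
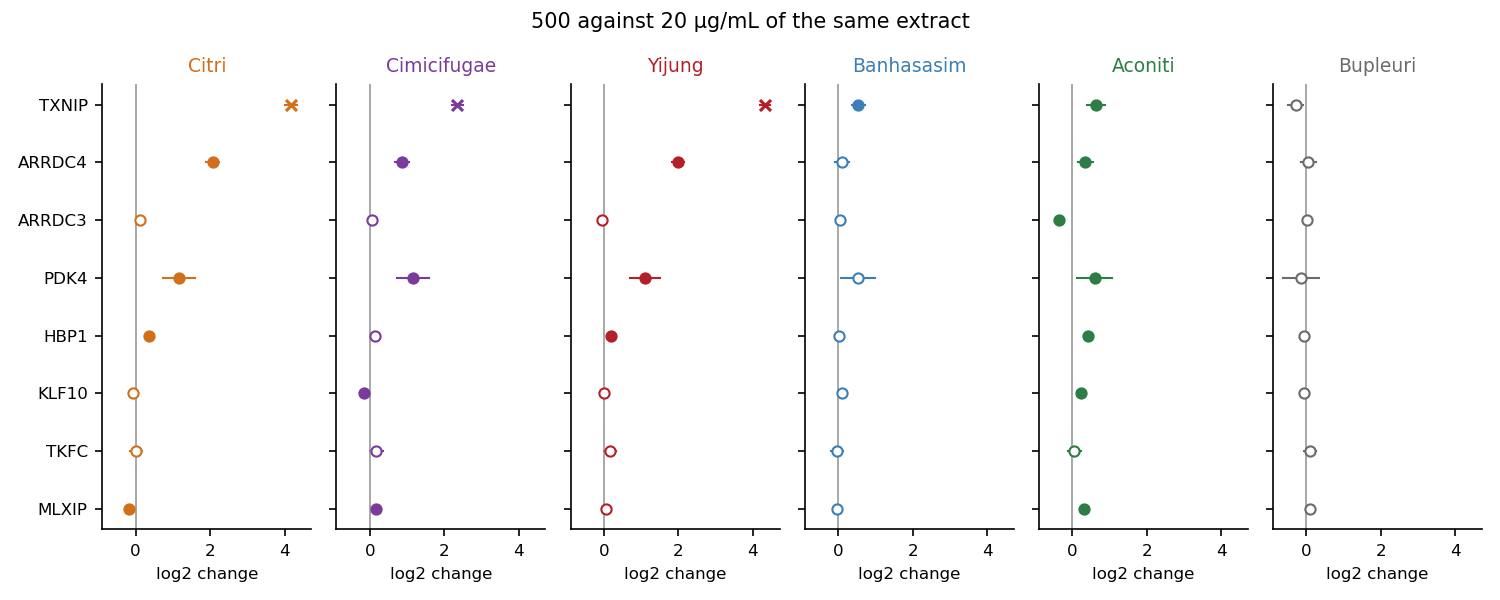
Log2 change at 500 against 20 µg/mL of the same extract for the 8 genes, with bars for 95% intervals. Filled points passed edgeR's test, open points did not, and crosses mark TXNIP in the 3 extracts that chose the genes, which was not tested. ARRDC4 and PDK4 are the largest tested rises with Citri, Cimicifugae and Yijung-tang.

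PDK4, the brake on pyruvate dehydrogenase, was scarce but moved with the same extracts. With the high dose of Yijung-tang it had 3.602, 3.75 and 3.89 CPM, against 1.88, 1.60 and 1.70 CPM at the low dose. With Cimicifugae it had 3.02, 3.64 and 4.01 CPM at the high dose, against 1.71, 1.70 and 1.303 CPM, and with Citri 3.23, 3.07 and 3.50 CPM, against 1.25, 1.47 and 1.66 CPM. None of these pairs of groups overlapped. As with ARRDC4, the high-dose tests of PDK4 in these extracts are not independent of earlier results. The rises were 1.11 ± 0.21, 1.17 ± 0.22 and 1.17 ± 0.22 log2 units (edgeR adjusted p = 4.12e-05, 3.48e-05 and 8.42e-05), and 1.07 in Cimicifugae and 1.26 in Citri without the 2 libraries that lay apart. PDK4 was not shown to differ between Citri and Cimicifugae: at 500 µg/mL the difference was -0.12 with a 95% interval of -0.49 to 0.25 (edgeR adjusted p = 0.759), while ARRDC4 was higher with Citri by 1.02 ± 0.076 (1.24e-14, 12.3% of genes called). With Aconiti the high dose gave 1.61, 2.91 and 2.41 CPM of PDK4, against 1.41, 1.40 and 1.84 CPM at the low dose, a rise of 0.60 ± 0.24 with overlapping libraries (edgeR adjusted p = 0.0267). Leaving out the second or the third high-dose or the first or second low-dose Aconiti library ended that call (0.0714 to 0.213), as did library totals (0.0647). Against the medium Aconiti dose (0.559 to 1.52 CPM) the rise was 1.04 log2 units without overlap, where 47.1% of genes were called. That call held in all 16 alternative fits.

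HBP1, the HMG-box repressor, rose at the high dose of Aconiti, Citri and Yijung-tang. Aconiti gave 56.7, 55.3 and 55.6 CPM at the high dose, against 40.02, 42.7 and 41.8 CPM at the low dose. Citri gave 53.3, 53.1 and 49.3 CPM, against 39.97, 44.9 and 36.7 CPM. Neither pair overlapped, and the changes were 0.43 ± 0.054 and 0.36 ± 0.054 log2 units (edgeR adjusted p = 2.12e-09 and 1.98e-06), the Citri one 0.29 without the 2 libraries that lay apart. Yijung-tang gave 0.19 ± 0.054 (adjusted p = 0.00715, and 0.0503 without the third low-dose library). In Cimicifugae HBP1 did not pass, at 0.13 (adjusted p = 0.0555), but did without the third high-dose Cimicifugae library (0.0122) and, at 0.18, without the 2 libraries that lay apart (0.00703). COG5 and an antisense transcript overlap HBP1 on the other strand. The library kit kept strand, but no source used here says whether counting did. High against medium dose, HBP1 rose by 0.23 with Citri, 0.45 with Aconiti and 0.16 with Yijung-tang (edgeR adjusted p = 0.00224, 1.09e-09 and 0.0276, where 7.98%, 47.1% and 15.8% of genes were called). The Yijung-tang call was lost without the first or the third high-dose or the first or the third medium-dose library (0.0656 to 0.131). With the medium dose of Banhasasim-tang HBP1 was at -0.21 ± 0.054 against the vehicle (edgeR adjusted p = 0.00808, 8.32% called), a call lost without the first or the third vehicle library or the first medium-dose library (0.0582 to 0.0641).

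**Figure D4:**
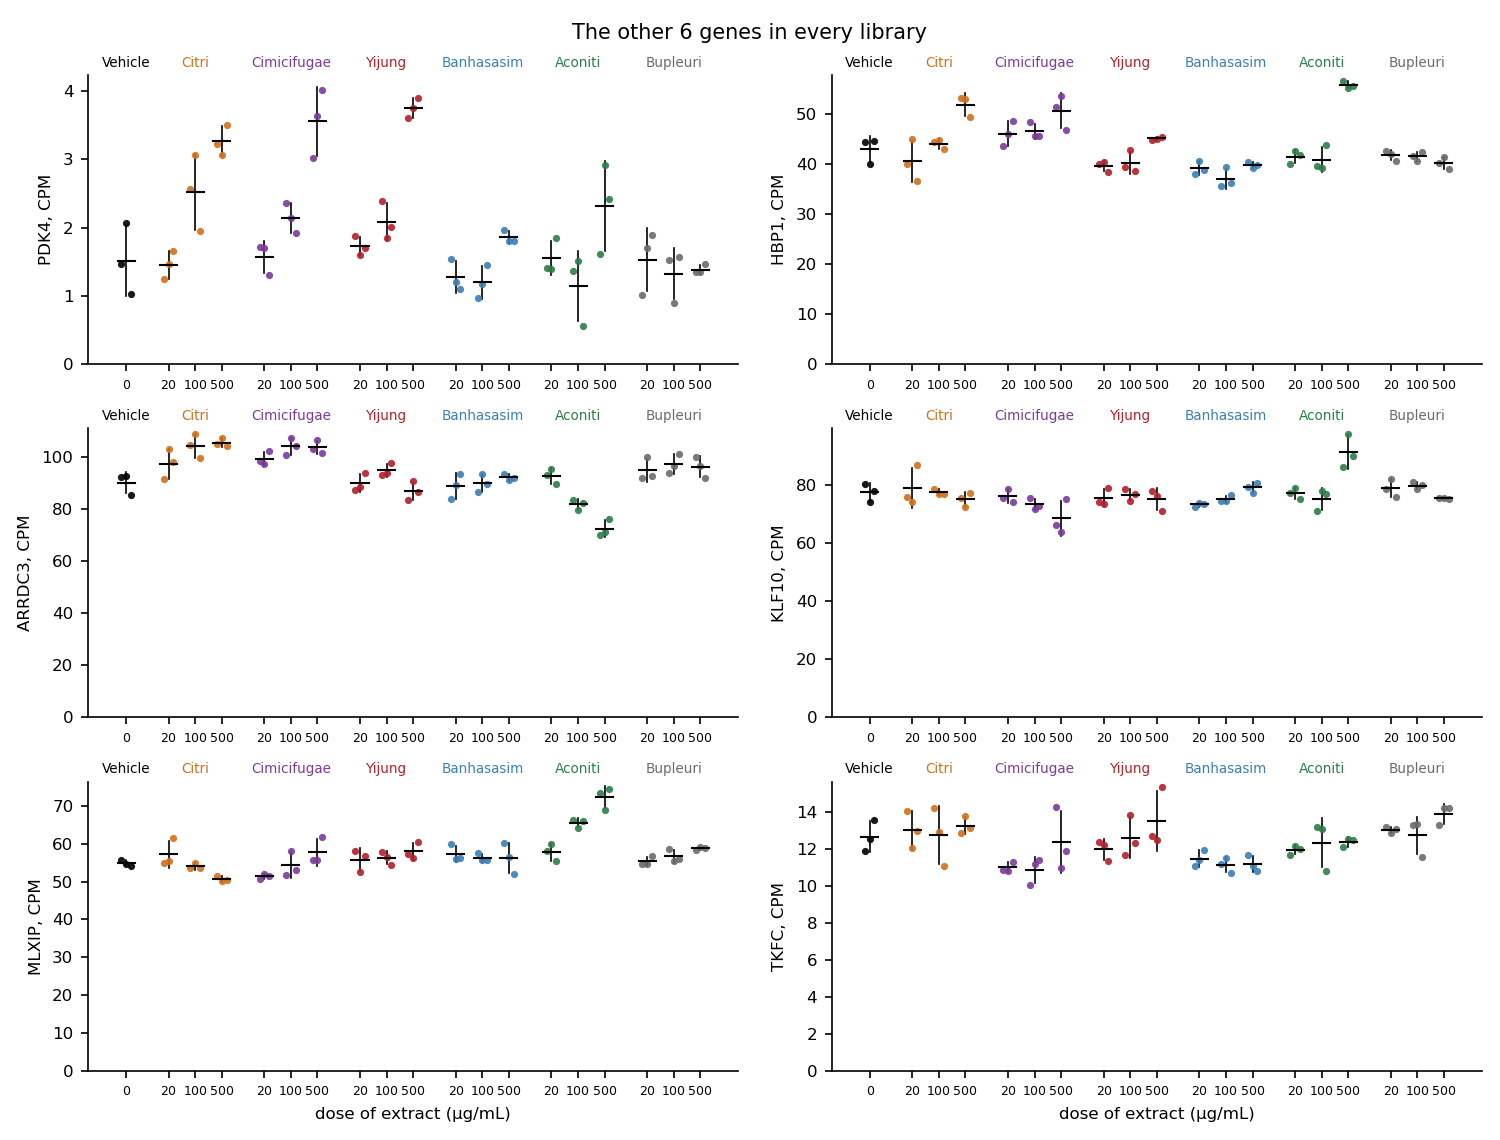
CPM (linear axes from 0) of PDK4, HBP1, ARRDC3, KLF10, MLXIP and TKFC by dose of extract in µg/mL, with points for libraries, horizontal bars for means and vertical bars for SD (n = 3). PDK4 is highest at 500 µg/mL of Yijung-tang, Cimicifugae and Citri, and HBP1, KLF10 and MLXIP are highest and ARRDC3 lowest at 500 µg/mL of Aconiti.

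ARRDC3, also an alpha-arrestin, had no change of such size at the high doses where TXNIP and ARRDC4 were highest. Its clearest change was a fall with Aconiti, to 70.0, 71.2 and 76.2 CPM at 500 µg/mL, against 93.1, 95.5 and 89.7 CPM at 20 µg/mL, with the medium dose between (83.6, 79.9 and 82.5 CPM). The high dose was at -0.36 ± 0.046 log2 units from the low dose (edgeR adjusted p = 3.93e-09). With Yijung-tang ARRDC3 at the high dose was at -0.05 from the low dose and did not pass. With Citri and Cimicifugae ARRDC3 was above the vehicle at 100 µg/mL, by 0.21 ± 0.044 each (edgeR adjusted p = 0.00302 and 0.00158). These libraries come from extracts that chose the genes, and the vehicle from another code set. The Citri call was lost without the third vehicle or the second medium-dose library (0.0553 and 0.0535). At 500 µg/mL ARRDC3 was above the vehicle by 0.23 with Citri and 0.20 with Cimicifugae, untested. High against low dose it did not pass, at 0.11 with Citri (edgeR adjusted p = 0.0627) and 0.06 with Cimicifugae (0.335). That Citri change passed with library totals in place of TMM (0.16, 0.00915), among other settings. Medium against low Citri stood at 0.10 (0.411). ARRDC3-AS1 lies opposite ARRDC3.

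Against the vehicle the high Aconiti dose, where 60.4% of genes were called, had HBP1 higher by 0.38, KLF10 by 0.24 and MLXIP by 0.40 log2 units and ARRDC3 lower (-0.31), with edgeR adjusted p of 3.35e-08, 2.99e-05, 3.19e-10 and 6.64e-08. Against Bupleuri at the same dose (58.3% called) the log2 differences were 0.47 for HBP1, 0.28 for KLF10, 0.30 for MLXIP and -0.41 for ARRDC3 (largest edgeR adjusted p = 2.28e-06). With library totals in place of TMM the differences from the vehicle were 0.25 for HBP1 and 0.11 for KLF10, and those from Bupleuri 0.15 for KLF10 and 0.16 for MLXIP, still past the threshold (largest edgeR adjusted p = 0.033). PDK4 passed in both as well, at 0.61 above the vehicle and 0.76 above Bupleuri (edgeR adjusted p = 0.0227 and 0.00455). Its call against the vehicle was lost with library totals (0.074) and without replicate 1 or 3 of the vehicle or replicate 2 or 3 of the Aconiti dose (0.0607 to 0.193), and that against Bupleuri without replicate 2 of the Aconiti dose (0.0704). KLF10 had 86.4, 97.7 and 89.9 CPM at the high dose, against 77.3, 78.8 and 75.2 CPM at the low dose, a rise of 0.25 ± 0.049 log2 units (edgeR adjusted p = 2.38e-05), or 0.15, still past the threshold, with library totals. MLXIP, the sensor, climbed with the Aconiti dose, with 58.1, 59.9 and 55.3 CPM at 20, 66.3, 64.2 and 66.1 CPM at 100, and 73.3, 69.0 and 74.5 CPM at 500 µg/mL, against 55.6, 54.7 and 54.0 CPM with vehicle. Its rise was 0.32 ± 0.047 at the high against the low dose (edgeR adjusted p = 6.51e-08) and 0.26 ± 0.048 at the medium dose against the vehicle (2.45e-05), or 0.14 with library totals (0.0121). Between neighbouring doses the steps were 0.18 at medium against low (edgeR adjusted p = 0.00373) and 0.14 at high against medium (0.0109). The first was lost with library totals (0.10, 0.117) and without replicate 1 or 3 of every group (0.0556 and 0.0516). The second was lost without replicate 2 of the medium or replicate 3 of the high dose (0.0748 and 0.0942). At the medium dose TXNIP was at its lowest, and a link with the MLXIP transcript was not tested.

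In the 3 extracts with high TXNIP, MLXIP moved little and not in one direction. High against low dose, it fell by 0.17 ± 0.048 with Citri and rose by 0.17 ± 0.047 with Cimicifugae (edgeR adjusted p = 0.00677 and 0.0066), and with Yijung-tang it did not pass. The Citri call was lost without the third low-dose Citri library (0.106) and the Cimicifugae call without the third high-dose Cimicifugae library (0.12), the libraries that lay apart. Without both the changes were -0.12 (0.072) and 0.11 (0.0966). KLF10 was lower at the high than the low dose of Cimicifugae by 0.15 ± 0.049 (-0.15, edgeR adjusted p = 0.0162), with overlapping libraries, and that call was lost without the first or second high-dose or the second low-dose library (0.0872 to 0.129). Without the 2 libraries that lay apart it was -0.23 (7.54e-05).

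TKFC had group means from 13.9 to 10.9 CPM and overlap at every one of 18 steps. It passed in 0 of 18 dose comparisons and 0 of 15 vehicle comparisons by edgeR (3 and 4 at an unadjusted p under 0.05, 0 by DESeq2). It was higher with Yijung-tang than with Banhasasim-tang at 500 µg/mL, by 0.27 ± 0.083 log2 units (edgeR adjusted p = 0.0134). That call was lost without the third high-dose library of Yijung-tang (0.195) or of Banhasasim-tang (0.0514). DDB1 and CYB561A3 overlap TKFC on the other strand and AP003108.3 on the same strand, so reads could be shared.

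The formulas Yijung-tang and Banhasasim-tang share a code set, and 4 of 7 tested members were higher with Yijung-tang at 500 µg/mL, where 23.8% of genes were called. ARRDC4 had 23.6, 24.3 and 23.4 CPM with Yijung-tang, against 6.48, 5.53 and 5.40 CPM with Banhasasim-tang, a difference of 2.03 ± 0.085 log2 units (edgeR adjusted p = 2.49e-25). PDK4 differed by 1.01 ± 0.20 (0.00013) and HBP1 by 0.18 ± 0.054 (0.0106), with TKFC as above. Earlier results had shown ARRDC4 and PDK4 higher in these Yijung-tang libraries. The tests at 500 µg/mL, and the count of 4, are therefore not independent of those results. At 100 µg/mL PDK4 differed by 0.77 (edgeR adjusted p = 0.0491), a call lost without any one of 5 of the 6 libraries, replicates 1, 2 and 3 of Yijung-tang and 1 and 2 of Banhasasim-tang (0.0611 to 0.263). At that dose TXNIP was higher with Yijung-tang by 1.05 ± 0.083 (edgeR adjusted p = 8.55e-14, 2.47% of genes called). That test is not independent of the choice of genes and is no further evidence of the rise. The 6 libraries did not overlap. At 20 µg/mL TXNIP stood at 0.31 with a 95% interval of 0.13 to 0.49 and did not pass (edgeR adjusted p = 0.342, 0.0873% called). Banhasasim-tang had a small rise of TXNIP of its own, with 13.002, 13.1 and 11.9 CPM at the high dose, against 8.13, 8.50 and 9.48 CPM at the low dose (0.54 ± 0.088, edgeR adjusted p = 1.26e-05), while ARRDC4 did not pass there (0.11 ± 0.098). The epithelial markers summed to 118 to 126 CPM at that high dose and 185 to 195 CPM at the low dose, and the fibroblast markers to 4535 to 4688 and 5358 to 5585 CPM. The microglial and leukocyte markers were not lower, at 185.1 to 188.1 CPM with the high and 171.3 to 184.1 CPM with the low dose. The part of any of these lists in the rise was not tested. Against its medium dose the TXNIP rise was 0.55 (edgeR adjusted p = 1.89e-05, 2.4% of genes called).

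The high-to-low change itself was compared between the extracts of each set, in 22 tests over 3 pairs. ARRDC4 changed more with Yijung-tang than with Banhasasim-tang by 1.88 ± 0.13 log2 units (edgeR adjusted p = 7.75e-16, 10.1% of genes called), and more with Citri than with Cimicifugae by 1.20 ± 0.13 (3.05e-09, 11.1% called). Both pairs hold high-dose libraries of extracts that chose the genes, so these tests are not independent of the earlier results either. Between Aconiti and Bupleuri, 5 of 8 members differed, where 44% of genes were called. TXNIP was among them, at 0.93 ± 0.16 (4.08e-06). PDK4 passed in 0 of these 3 pairs by edgeR (1 at an unadjusted p under 0.05, 0 by DESeq2). Its value for Citri minus Cimicifugae was 0.00 with a 95% interval of -0.61 to 0.61.

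Other genes of the same pathways were read at 500 against 20 µg/mL from 7 lists that leave out the 8 members. In the MLX network, the transcription factors that share partners with MLXIP, 7 of 10 tested genes rose and 2 fell with Aconiti, 4 rose with Cimicifugae, 3 rose with Yijung-tang, and 2 rose and 1 fell with Citri. Of all genes 57.8%, 25.1%, 21.7% and 18.2% were called in these comparisons, shares that hold for the lists that follow as well. The Aconiti rises included MLXIPL, the MondoA paralogue ChREBP, by 2.55 ± 0.55 log2 units to only 1.17 CPM, MXD1 by 1.96 ± 0.070 and MYC by 1.46 ± 0.064 (edgeR adjusted p = 1.43e-05, 1.57e-29 and 3.41e-25). With Cimicifugae MXI1, a MAX-binding repressor, rose by 0.55 ± 0.071 (3.68e-08). The list medians were 0.53 with Aconiti and 0.03 to 0.25 with Citri, Yijung-tang and Cimicifugae, against 0.01 or less over all genes.

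The thioredoxin list pairs with TXNIP by function. TXNRD1, thioredoxin reductase, rose with all 6 extracts, by 0.73 ± 0.048 log2 units with Aconiti, 0.41 ± 0.047 with Cimicifugae, 0.37 ± 0.047 with Yijung-tang, 0.33 ± 0.048 with Bupleuri, 0.31 ± 0.048 with Citri and 0.26 ± 0.047 with Banhasasim-tang (largest edgeR adjusted p = 7.34e-05). TXNIP itself did not pass with Bupleuri, at -0.29 with a 95% interval of -0.49 to -0.09 (edgeR adjusted p = 0.0966). SRXN1, sulfiredoxin, rose by 0.99 ± 0.035 with Aconiti. Of the 12 thioredoxin genes 5 rose and 3 fell with Aconiti, 4 rose with Citri, 2 rose and 1 fell with Cimicifugae, and 3 rose and 2 fell with Yijung-tang. List medians lay between -0.06 and 0.10. The share called was near that of all genes with Aconiti (57.8%) and Cimicifugae (25.1%).

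Among 13 tested genes of glucose uptake and phosphorylation, 7 rose and 1 fell with Aconiti, a share near the 57.8% of all genes. HKDC1, a hexokinase-domain protein, had 56.7 ± 3.5 CPM at the high dose and 2.87 ± 0.13 CPM at the low dose (SD, n = 3 each), a rise of 4.31 ± 0.14 log2 units. HK2 rose by 1.07 ± 0.039, and the transporter SLC2A12 fell by 1.70 ± 0.19 (-1.70, edgeR adjusted p = 2.26e-11). With the 3 extracts of high TXNIP the changes were small. SLC2A3, a neuronal-type glucose transporter, rose by 0.42 ± 0.038 with Citri and by 0.27 ± 0.038 with Cimicifugae, and SLC2A1, the main basal transporter, fell by 0.24 ± 0.036 with Yijung-tang (edgeR adjusted p = 1.89e-06). Counts were 4 up and 2 down with Citri, 3 up and 1 down with Cimicifugae and 2 up and 1 down with Yijung-tang.

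**Figure D5:**
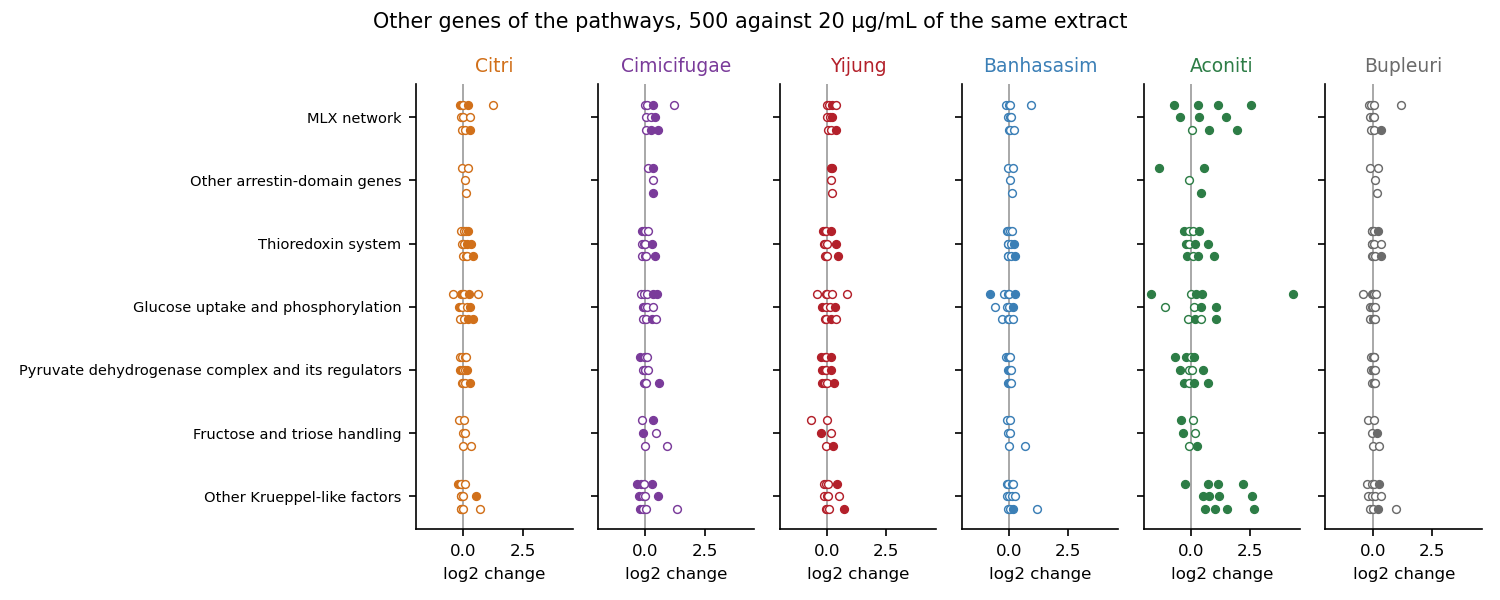
Log2 change at 500 against 20 µg/mL of the same extract for the genes of 7 pathway lists, 1 point per gene (filled, passed edgeR's test). The widest spread is with Aconiti, where 11 of 12 other Krüppel-like factors rose and HKDC1 lies at 4.31. The lists were drawn up with earlier results of these data known.

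In the pyruvate dehydrogenase list of 12, PDK2, a relative of PDK4, rose by 0.56 ± 0.072 with Cimicifugae, 0.29 ± 0.074 with Yijung-tang and 0.26 ± 0.073 with Citri (edgeR adjusted p = 5.03e-08, 0.00245 and 0.00821). PDK3 fell by 0.69 ± 0.076 with Aconiti. In all, 4 rose and 4 fell with Aconiti and 3 and 3 with Yijung-tang, 2 rose and 1 fell with Citri, and 1 rose and 1 fell with Cimicifugae, against 57.8%, 21.7%, 18.2% and 25.1% of all genes called. Of 12 other Krüppel-like factors, 11 rose and 1 fell with Aconiti, a median of 1.08 against 0.01 over all genes, with KLF15 at 2.68 ± 0.47 and KLF4 at 2.56 ± 0.091. KLF9, a glucocorticoid-responsive relative of KLF10, rose by 0.72 ± 0.048 with Yijung-tang, 0.54 ± 0.048 with Cimicifugae and 0.51 ± 0.049 with Citri (largest edgeR adjusted p = 3.02e-11). Of 6 fructose and triose genes tested, the pentose-pathway enzyme TKT rose with Cimicifugae, Aconiti and Yijung-tang, by 0.30 ± 0.040, 0.23 ± 0.040 and 0.23 ± 0.040. Of 4 other arrestin-domain genes tested, ARRDC1, another alpha-arrestin, rose by 0.44 ± 0.086 with Aconiti, 0.32 ± 0.083 with Cimicifugae and 0.22 ± 0.083 with Yijung-tang (largest edgeR adjusted p = 0.0494). TKT and ARRDC1 are single genes and do not stand for their lists.

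Genes with a pattern like that of TXNIP were ranked by Pearson r over the 19 group means of log2 CPM, among 11228 genes with a mean of at least 5 CPM. The group means share their scaling, and r is a description without a test. ARRDC4 had r = 0.95 and PDK4 0.86, above ARRDC3 (0.38), HBP1 (0.47), TKFC (0.29), KLF10 (-0.36) and MLXIP (-0.40). Without the 3 high-dose groups that chose the genes, r over the other 16 groups was 0.69 for ARRDC4, 0.61 for PDK4, 0.58 for ARRDC3, 0.03 for HBP1, -0.12 for KLF10, -0.21 for TKFC and -0.62 for MLXIP, so ARRDC3 then lay next to PDK4. Outside the members the highest were KREMEN1 (0.94), LRP11, RALGDS, ZNF528, CEP152, GATC, PCYOX1L and HOTAIRM1 (0.91; over the 16 groups KREMEN1 had 0.65 and HOTAIRM1 0.29), and the most opposite were STAC (-0.97), DACT1, PRXL2C and NBPF1 (-0.94). KREMEN1 averaged 23.9 CPM with the high dose of Yijung-tang, against 18.9 CPM with vehicle, and STAC 33.3 CPM, against 42.8 CPM. Of the 8 most similar genes, 0 were among the first 8 with Spearman's rho in place of Pearson's r.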

How the data were processed

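mRNA libraries of 60 samples were made with a directional kit and read as 100 bp pairs, per the labels' protocols. The authors deposited 1 table of expected counts per Ensembl gene. The submitters' processing notes name RSEM 1.3.3, STAR 2.7.3a, FastQC 0.11.9 and Trim Galore 0.6.5, with hg38 and GRCh38 as builds. Here expected counts were rounded (9.22% of values were not whole), and symbols came from a gene name table for 56558 of 60675 genes. edgeR 4.0.16 in R 4.3.3 (filterByExpr, TMM, quasi-likelihood fit) was run on 57 libraries of 19 groups, 17190 genes, 48 contrasts, with Benjamini-Hochberg adjustment per contrast at 0.05. SEs are Wald SEs of that fit, and intervals are 1.96 SE. The test was checked on simulated data. Replicate libraries differed by more than counting error (chi-square per degree of freedom 1.74 to 21.9). Intervals cover this spread, not cultures.

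The members and lists were chosen with earlier results of these data known. TXNIP was not tested where high-dose libraries of Citri, Cimicifugae or Yijung-tang, or a high dose against the vehicle, enter, nor was any member at those 3 high doses against the vehicle. TXNIP at the other doses of these extracts against the vehicle was fitted and enters the counts of calls, but is described without a test. The 8 members were named throughout. From each pathway list at most 3 called genes per comparison, by size of change, and the 8 most like and 4 most opposite to TXNIP were named. Alternatives were DESeq2 1.42.0, other scalings and filters, the compared groups alone, a replicate block, and leaving libraries out. Same-numbered libraries of different groups did not deviate together (r between -0.056 and 0.095).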

Additional observations from a re-analysis of the deposited data

Results flagged for a closer look

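The high-to-low dose change differed between extracts of one code set for 9 combinations of gene and pair out of 22 tested, by the edgeR test of the difference. Of all genes, 11.1% were called for Citri minus Cimicifugae, 44% for Aconiti minus Bupleuri and 10.1% for Yijung-tang minus Banhasasim-tang. In log2 units, Citri minus Cimicifugae was 1.20 for ARRDC4, 0.22 for HBP1 and -0.34 for MLXIP. The HBP1 difference (edgeR adjusted p = 0.0478) was lost on leaving out any one of 7 libraries (0.0674 to 0.262): replicates 1 and 2 of high and 1 and 3 of low Citri, replicate 3 of high and 2 and 3 of low Cimicifugae. Without the 2 libraries that lay apart, replicate 3 of low Citri and of high Cimicifugae, the differences were 1.20 for ARRDC4, 0.10 for HBP1 (0.59) and -0.23 for MLXIP (0.042), and KLF10 passed, at 0.23 (0.0258). The MLXIP call was lost when replicate 3 was left out of every group (-0.23, 0.107). Aconiti minus Bupleuri was 0.93 for TXNIP, -0.38 for ARRDC3, 0.48 for HBP1, 0.31 for KLF10 and 0.23 for MLXIP. The MLXIP call was lost with library totals in place of TMM (0.14, edgeR adjusted p = 0.0819) and when replicate 3 was left out of every group (0.15, 0.0919). Yijung-tang minus Banhasasim-tang was 1.88 for ARRDC4. As above, tests that hold high-dose libraries of Citri, Cimicifugae or Yijung-tang are not independent of earlier results.

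Bojungikgi-tang, with 1 library per dose and no test, exceeded the highest vehicle library for several members. TXNIP had 15.7 CPM at 500 and 9.38 CPM at 100 µg/mL, against 9.31 CPM in the highest vehicle library. PDK4 had 2.90 CPM at 500 µg/mL, against 2.07 CPM. ARRDC3 had 93.2, 97.6 and 107 CPM at 20, 100 and 500 µg/mL, against 92.6 CPM, and MLXIP had 56.9 CPM at 20 µg/mL, against 55.6 CPM. Some of these excesses are small beside the spread within groups of 3.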

How the results depend on the processing

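Of the 85 member calls by edgeR, 53 held under every alternative and 32 were lost under at least 1, and none changed direction. The calls came from 117 tests against the vehicle, 138 within an extract, 70 between extracts and 22 of differences. In comparisons with a member call, between 0.105% and 60.4% of all genes were called. By gene, 15 of 19 calls held for TXNIP, 12 of 13 for ARRDC4, 5 of 6 for KLF10, 6 of 11 for ARRDC3, 6 of 12 for HBP1, 5 of 11 for PDK4, 4 of 12 for MLXIP and 0 of 1 for TKFC. The TXNIP count, and so the 85, includes its 5 rises against the vehicle at lower doses of Citri, Cimicifugae and Yijung-tang. Those were described above without a test, and the extracts chose the genes, so their holding is no evidence of the rise. The same goes for TXNIP between doses of these extracts. The high-dose calls of ARRDC4 and PDK4 in these extracts are likewise not independent of earlier results. Of the 85 calls, 22 were lost under at least 1 of the fits without a single library. Under at least 1 of the fits without a replicate number, 31 were lost. In the comparisons with the vehicle, the count of 18 ranged from 11 to 18 on leaving out libraries (11 without replicate 2), within an extract 41 became 32 to 42, between extracts 17 became 15 to 18, for the differences 9 became 6 to 10, and for the pathway lists 126 became 92 to 129. Fewer samples enter those fits. Leaving out single extract libraries was chosen after seeing the data.

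Library totals in place of TMM ended 6 calls and added 7, no filter on low counts ended 3 and added 6, fitting only the compared groups ended 10 and added 2, and leaving out the 2 libraries that lay apart ended 6 and added 5. DESeq2, and its size factors within edgeR, ended 0 and added 0. With a mean of at least 5 CPM, which PDK4 does not reach, 74 calls were refitted, 0 were lost and 3 added. With a replicate block 0 were lost and 2 added, to 43 within an extract, though the numbers do not pair the samples. PDK4, at 12 to 102 counts per library, is the member most limited by depth. Of the calls printed above, fitting only the compared groups ended those of TXNIP between the medium and low Citri dose (edgeR adjusted p = 0.794), MLXIP between the high and low dose of Citri (0.0886) and Cimicifugae (0.0999), KLF10 between those of Cimicifugae (0.185), HBP1 between the high and medium Yijung-tang dose (0.0622), PDK4 at the high Aconiti dose against the vehicle (0.0523), and the Citri minus Cimicifugae differences of HBP1 (0.291) and MLXIP (0.0667). No filter on low counts ended those of ARRDC4 at the medium Aconiti dose against the vehicle (0.0623), HBP1 between the high and medium Yijung-tang dose (0.0834) and the HBP1 difference (0.0625). Leaving replicate 1 out of every group ended the HBP1 calls between the high and medium Citri dose (0.145), the high and low Yijung-tang dose (0.088) and Yijung-tang and Banhasasim-tang at the high dose (0.105), and leaving out replicate 2 that of ARRDC3 at the medium Cimicifugae dose (0.0548). The causes were not tested.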
